A study of Mus musculus with 4 samples.

Results

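Interleukin 2 (Il2) and the receptor chains through which it and related cytokines act form the subject here: the ligand gene Il2, the IL-2 receptor genes Il2ra, Il2rb and Il2rg, and 3 further receptor chains that pair with Il2rg, namely Il7r, Il4ra and Il9r. These 7 genes were chosen by name, among 28625 gene symbols in the deposited matrices, and all 7 had UMIs (unique molecular identifiers, counted transcript molecules) in both sorted populations. CD4 T cells were taken from the mediastinal lymph node of mice 7 days after intranasal Alternaria alternata extract (10 µg) with NP-OVA (25 µg), a hapten coupled to ovalbumin. The Tfh sort came from 3 C57BL/6 mice and kept TCRβ+ CD4+ CD44+ cells with surface PD-1 and CXCR5, the marks of T follicular helper (Tfh) cells. The IL-4 reporter sort came from 3 mice of the C57BL/6 4GET strain, in which GFP reports Il4 transcription, and kept activated (CD44+) CD4 T cells with GFP. All cells were restimulated with PMA and ionomycin for 30 min before capture, and no unimmunized or unstimulated cells were analysed here, so every level below is one after immunization and restimulation. Hashtag antibodies told the cells of the mice apart, and mice are the replicates (n = 3 per sort).

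IL-2 is a growth factor that activated T cells secrete within hours of stimulation. IL-2RA (CD25) raises the affinity of the receptor, while IL-2RB and the common gamma chain IL-2RG pass the signal to JAK1, JAK3 and STAT5. Regulatory T cells, which carry the factor FOXP3, display much CD25 and make little IL-2. IL-2 signalling opposes the Tfh programme. The gamma chain also pairs with IL-7R, the survival receptor of resting T cells, with IL-4RA, the receptor of the type 2 cytokines IL-4 and IL-13, and with IL-9R.

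The promoters of Il2, Il2ra and Il9r are shown because the comparisons below turn on these genes. Il2 is the restimulated ligand gene, and Il2ra and Il9r were higher in Il13+ cells of the reporter sort. Each window is the 250 bases before the RefSeq start on GRCm38.p6, read 5′ to 3′ on the gene's strand, and a RefSeq window was found for 6 of the 7 members, all but Il2rb. The Il2 window is chr3:37125955-37126204 on the minus strand, upstream of the gene (GENCODE M21, chromosome 3, 37120523 to 37125959), whose model takes in the last bases of the window. The Il2ra window is chr2:11642542-11642791 on the plus strand, outside the gene model (chromosome 2, 11642807 to 11693193). The Il9r window is chr11:32200280-32200529 on the minus strand, next to the gene model (chromosome 11, 32187541 to 32200279). Capitals mark GGAAA, the core that NFAT binds, in Il2 and Il2ra, and GATAA, which GATA3 and its relatives bind, in Il9r, on either strand.
Il2: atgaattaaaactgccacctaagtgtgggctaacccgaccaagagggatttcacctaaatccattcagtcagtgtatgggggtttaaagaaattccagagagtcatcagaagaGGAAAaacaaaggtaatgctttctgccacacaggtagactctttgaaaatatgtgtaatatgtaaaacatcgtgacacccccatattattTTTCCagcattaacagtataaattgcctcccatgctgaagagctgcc
Il2ra: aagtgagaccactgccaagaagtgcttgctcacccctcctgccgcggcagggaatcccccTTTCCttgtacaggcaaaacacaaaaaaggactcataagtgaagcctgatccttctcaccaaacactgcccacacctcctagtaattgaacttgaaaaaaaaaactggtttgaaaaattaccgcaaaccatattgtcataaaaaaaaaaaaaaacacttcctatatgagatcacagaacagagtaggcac
Il9r: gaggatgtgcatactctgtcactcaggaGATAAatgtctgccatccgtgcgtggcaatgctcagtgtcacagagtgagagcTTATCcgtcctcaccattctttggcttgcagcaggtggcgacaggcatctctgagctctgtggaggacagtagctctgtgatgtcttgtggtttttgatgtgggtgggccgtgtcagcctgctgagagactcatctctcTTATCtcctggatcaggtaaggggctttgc
The Il2 window held GGAAA at 137 to 133 and at 47 to 43 bases before the start, and the Il2ra window held it at 190 to 186. The Il9r window held GATAA at 222 to 218, 169 to 165 and 30 to 26 bases before the start, and none of the other 5 windows held it. Among 32841 RefSeq promoters of the same length, 55.6% held GGAAA and 22.6% held GATAA, so GGAAA in a window is common. TGANTCA (AP-1) was in 0 of the 6 windows and in 6.75% of all, and TTCNNNGAA (STAT5) was in the Il7r window alone of the 6 and in 7.02% of all. No match overlapped another motif, and a match describes letters, not binding.

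The analysis used 3072 cells of the Tfh sort (1149, 1236 and 687 in mice 1, 2 and 3) and 3436 of the reporter sort (1159, 998 and 1279) that carried T-cell receptor complex transcripts (Cd3d, Cd3e, Cd3g) above B-cell and macrophage transcripts and no Cd8b1. Median depth was 2684.5 to 2907 UMIs per cell for Tfh-sorted cells and 6288 to 6876 for reporter-sorted cells. Cd4 was present in every mouse (183 to 257 CPM, UMIs of a gene per 1000000 UMIs of the summed cells), and the Tfh sort had 0 UMIs of the 4 mast cell and basophil markers. Of the reporter sort 2772 of 7646 barcodes exceeded 10% mitochondrial UMIs and were left out, and 1 barcode occurred in both libraries. Strain, chemistry version and sequencer differ between the sorts, so their levels are given side by side with no test. Cells with B-cell transcripts and no Cd3 UMI (356 and 121 cells) served as background for free RNA.

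Il2 transcripts were found in both sorts, at CPM far above the background of B-marked cells. Il2 stood at 1194, 1019.9 and 1269 CPM in the Tfh-sorted T cells of the 3 mice and at 239, 248 and 268 CPM in the reporter-sorted T cells. B-marked cells had 46.9, 136 and 39.2 CPM in the Tfh sort and 12.8, 0 and 24.5 CPM in the reporter sort. Every T-cell value lay above every B-marked value of its sort. With each cell drawn down to 1500 UMIs, an Il2 UMI was found in 35.6, 35.5 and 36.9% of Tfh-sorted T cells, against 8.40, 6.73 and 6.86% of B-marked cells (unthinned 46.9, 45.3 and 48.5% of T cells, at a B-marked median depth of 1979 to 2107 UMIs). With 3000 UMIs drawn per cell it was 17.8, 17.0 and 15.0% in the reporter sort, against 6.06, 0 and 9.62% of B-marked cells, whose median depth was 4184 to 4734 UMIs. These B-marked shares rest on 33, 23 and 52 cells, and mouse 3 was the closest to its background.

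Few cells held most of the ligand transcript. The 10% of cells with the most Il2 UMIs carried 70.4, 68.6 and 70.5% of all Il2 UMIs in the 3 mice of the Tfh sort, against 87.8, 89.1 and 91.7% among reporter-sorted cells. Single cells reached 81, 80 and 90 Il2 UMIs among Tfh-sorted cells and 98, 122 and 138 among reporter-sorted cells, while the median among cells with any was 3 to 4. Il2rg, which T cells carry broadly, was spread more evenly, with 35.5 to 37.0% and 32.6 to 34.5% of its UMIs in the top 10% of cells.

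The receptor chains differed in how widely they were seen. Il2rg stood at 283, 324 and 267 CPM in the Tfh sort against 265, 238 and 235 CPM for the reporter sort, and Il2rb at 109.6, 102 and 103 CPM and at 58.4, 54.0 and 62.0 CPM. Il2ra, the high-affinity chain, stood at 25.4, 18.6 and 10.1 CPM in the Tfh sort and at 57.9, 70.6 and 56.3 CPM in the reporter sort, and Il7r at 7.17, 8.53 and 3.00 CPM and at 71.2, 65.2 and 44.1 CPM. At equal depth per cell 2.84, 1.82 and 1.18% of Tfh-sorted T cells had an Il2ra UMI against 2.29, 1.92 and 1.96% of B-marked cells, so that the overall share cannot be told from that of B-marked cells. Il9r was at 1.33, 1.49 and 1.03% against 3.05, 2.88 and 1.96%, higher in B-marked cells in each mouse. Whether the Il2ra and Il9r UMIs of B-marked cells are free RNA or their own transcripts was not tested. Il7r was at 0 in B-marked cells of both sorts, and Il4ra was higher in B-marked cells (118 to 147 and 81.5 to 96.2 CPM) than in T cells (18.4 to 22.4 and 10.8 to 14.0 CPM), as B cells express the IL-4 receptor themselves.

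Producers were then placed by the other transcripts of the same cell. A cell counted as positive with 2 or more UMIs of Il13 (a type 2 effector cytokine), Il21 (the B-cell help cytokine of Tfh cells) or Il2, or with 1 or more UMIs of Foxp3, Gata3 (the type 2 lineage regulator) or Cxcr5 (the follicle homing receptor), and as negative with none. UMIs were summed per mouse and class and compared by edgeR with the mouse as a block, and p-values were adjusted over all genes tested, with a call at an adjusted p under 0.05. An SE beside a log2 difference comes from the edgeR fit and does not measure the spread between mice.

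In the Tfh sort Il2 was highest in Il13+ cells, next in Il21+ cells and lowest in Foxp3+ cells. The Il13+ cells of the 3 mice (26, 32 and 10 cells) had 3238, 2047 and 2071 CPM against 1119.96, 978 and 1206 CPM in Il13- cells, with no overlap, a log2 difference of 1.12 ± 0.13 SE (edgeR adjusted p = 5.9e-15). Il21+ cells (366, 373 and 219) had 1537, 1413 and 1778 CPM against 838, 637 and 673 CPM, again with no overlap (1.15 ± 0.06, edgeR adjusted p = 1.3e-14). In Foxp3+ cells (33, 25 and 10) Il2 fell to 181, 255 and 363 CPM against 1259, 1052 and 1287 CPM (-2.39 ± 0.18, edgeR adjusted p = 8.1e-37). All 3 calls were kept under every alternative run (12 for Foxp3, and 14 for each of Il13 and Il21). At equal depth 65.4, 50.0 and 50.0% of Il13+ cells had an Il2 UMI, 45.6, 48.5 and 53.2% of Il21+ cells and 9.09, 24.0 and 20% of Foxp3+ cells, against 34.7 to 37.2% of Il13- and Foxp3- cells and 25.5 to 26.3% of Il21- cells. Unthinned, the shares of Il13+, Il21+ and Foxp3+ cells were 65.6 to 80.8%, 60.7 to 63.5% and 20 to 45.5%.

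Taken once each, in the order Foxp3, Il13, Il21, Cxcr5, Gata3 and none of these, the cells fell into tiers of Il2 that did not overlap. Il2 was at 3238, 2047 and 2071 CPM in the Il13 class, at 1583, 1399.9 and 1770.0 CPM in the Il21 class and at 424 to 1062 CPM in the Cxcr5, Gata3 and unmarked classes, whose mice overlap, with the Foxp3 class below all of them. By amount the Il21 class was the main source, with 46.7, 47.2 and 51.9% of all Il2 UMIs from 30.7, 29.0 and 30.7% of the cells. The Il13 class held 9.55, 9.68 and 3.72% from 2.26, 2.59 and 1.46% of the cells. The Foxp3 class held 0.910, 1.01 and 0.531% from 2.87, 2.02 and 1.46% of the cells.

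**Figure D1:**
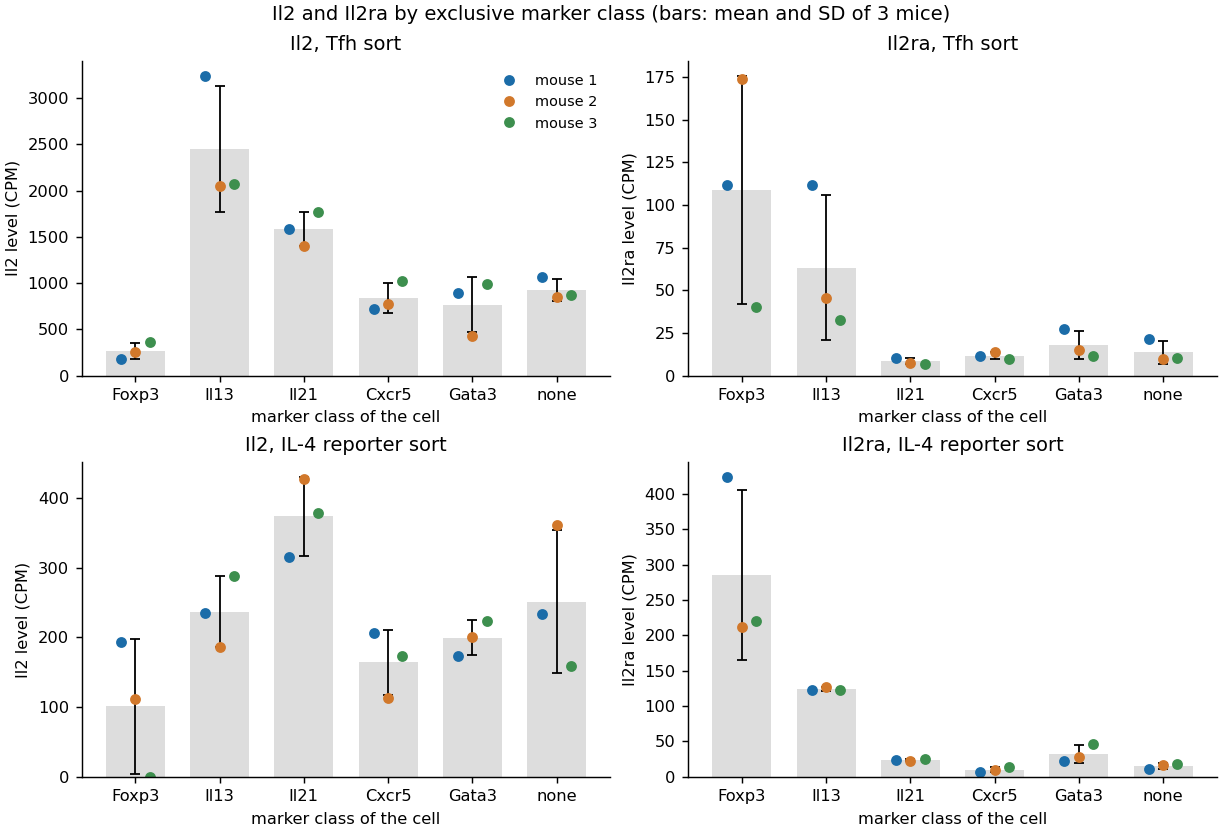
Il2 and Il2ra levels (CPM, linear axes that differ between panels) in 6 exclusive classes of CD4 T cells of both sorts, with bars and error bars for the mean and SD of 3 mice and 1 point per mouse. In the Tfh sort the Foxp3 class has the lowest Il2 (181 to 363 CPM) and its Il2ra reaches 40.3 to 174 CPM.

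Receivers in the Tfh sort were marked by Il2ra. Foxp3+ cells had 112, 174 and 40.3 CPM of Il2ra against 19.9, 12.1 and 9.54 CPM in Foxp3- cells, higher in 3 of 3 mice (2.98 ± 0.31, edgeR adjusted p = 1.7e-19). These rest on 29, 32 and 2 UMIs. Il2rb was also higher, at 166, 201 and 141 CPM against 106, 97.8 and 103 CPM (0.71 ± 0.21, edgeR adjusted p = 0.0275). With Il2 lower, 3 of the 7 members thus passed in the Foxp3 comparison, where edgeR called 4.61% of 7541 genes. The median log2 difference of the members was 0.71 against -0.03 over all genes tested. Il7r (27.0, 27.2 and 0 CPM against 5.91, 7.75 and 3.05) and Il4ra (34.7, 70.6 and 0 CPM against 21.7, 18.0 and 18.7) did not pass, and Il2rg stood at -0.32 and Il9r at -0.58. Foxp3+ cells were deeper than Foxp3- cells (median 4496.5 to 6205 UMIs against 2676 to 2886), and 42.4, 32.0 and 20% of them had a UMI of the cycling genes Mki67 or Top2a, against 17.6, 18.7 and 21.3%. At matched depth Il2ra stood at 2.24 (edgeR adjusted p = 0.0041). Without cycling cells, where mouse 3 dropped out, it was 2.11 and lost the call (edgeR adjusted p = 0.393), and Il2rb lost its call without any 1 mouse.

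Il13+ cells of the Tfh sort had both more ligand and more receptor. Il2ra stood at 112, 45.4 and 32.9 CPM against 22.2, 16.2 and 9.97 CPM in Il13- cells (1.94 ± 0.41, edgeR adjusted p = 1.5e-04), on 17, 10 and 2 UMIs. Il7r stood at 59.1, 22.7 and 0 CPM against 5.49, 7.73 and 3.19 CPM, higher in 2 of 3 mice (2.38 ± 0.67, edgeR adjusted p = 0.0163), on 9, 5 and 0 UMIs. Together with Il2, 3 of 7 members passed, all higher, where edgeR called 3.22% of 7351 genes, and the members' median was 1.12 against -0.05 over all genes. Il2rb, Il2rg, Il4ra and Il9r did not pass (0.02 to 1.13). No cell was both Foxp3+ and Il13+. Il13+ cells were deeper (median 4012 to 5462 UMIs against 2636 to 2886), and neither receptor chain could be tested at matched depth or passed without cycling cells (Il2ra 2.41 and Il7r 2.47, edgeR adjusted p = 0.0554 and 0.277). Without mouse 1 neither receptor chain passed (Il2ra 1.5 and Il7r 1.36, edgeR adjusted p = 0.462 and 0.852). In the Il13+ cells of mouse 2 the B-cell list stood at 227 CPM against 50.2, where mice 1 and 3 had 13.1 and 32.9 CPM against 41.2 and 47.1. Without mouse 2 Il2ra stood at 2.2 (edgeR adjusted p = 0.0075).

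By the remaining marks of the Tfh sort 0 to 2 members passed. Gata3+ cells had 35.4, 28.2 and 12.3 CPM of Il2ra against 19.0, 13.4 and 8.68 CPM (0.86 ± 0.20, edgeR adjusted p = 0.0049), the 1 member of 7 that passed where edgeR called 13.3% of 7899 genes. That share is near the background, and Il2ra stood at 0.21 without cycling cells (edgeR adjusted p = 0.901), of which Gata3+ cells held 28.4 to 30.4% against 13.6 to 18.3%, and at 0.76 without mouse 2 (edgeR adjusted p = 0.0876). Il21+ cells had less Il2ra, at 15.8, 12.2 and 8.54 CPM against 36.8, 24.7 and 10.6 CPM (-0.98 ± 0.23, edgeR adjusted p = 0.0139), so that 2 of 7 members passed, in opposite directions, where edgeR called 3.00% of 7862 genes. The Il2ra call was lost without Foxp3+ cells (-0.90, edgeR adjusted p = 0.103) and without mouse 1 (-0.79) or mouse 2 (-0.98), with edgeR adjusted p of 0.253 and 0.0881. Cxcr5+ and Cxcr5- cells, all from a gate on surface CXCR5, differed in 0 of 7 members (0 at an unadjusted p under 0.05, and 0 by DESeq2) where edgeR called 1.58% of 7898 genes, with Il2 at 0.01 ± 0.04.

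**Figure D2:**
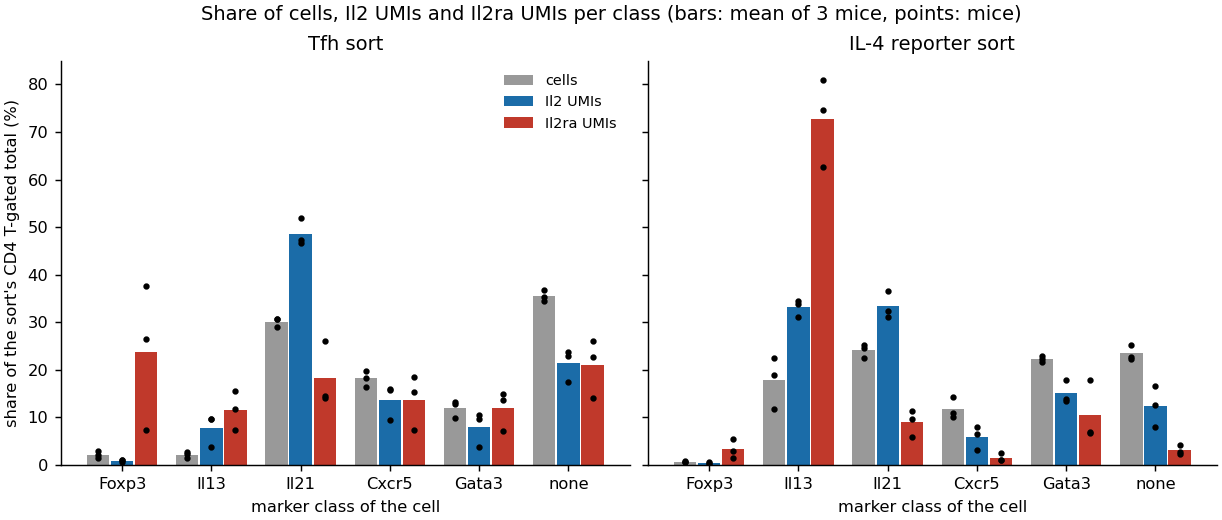
Share of cells and of all Il2 and Il2ra UMIs (percent) held by each exclusive class, bars are means over 3 mice with 1 point per mouse. The Il21 class holds 46.7 to 51.9% of Il2 UMIs in the Tfh sort, and the Il13 class 62.6 to 80.9% of Il2ra UMIs in the reporter sort.

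In the reporter sort Il2ra, Il7r and Il9r were higher in Il13+ cells, and the other receptor chains were not. Il13+ cells (223, 227 and 151) had 123, 129 and 122 CPM of Il2ra against 19.7, 21.6 and 30.3 CPM in Il13- cells, with no overlap (2.39 ± 0.11, edgeR adjusted p = 4.7e-10). Il7r stood at 113, 87.7 and 65.4 CPM against 46.7, 46.9 and 32.8 CPM (1.07 ± 0.10, edgeR adjusted p = 2.9e-07). Il9r stood at 28.7, 22.8 and 19.0 CPM against 5.04, 10.2 and 8.05 CPM (1.60 ± 0.22, edgeR adjusted p = 1.6e-05). In all 3 genes the lowest Il13+ mouse lay above the highest Il13- mouse, and each call was kept under all 14 alternatives. Il2rg was slightly lower, at 256, 216 and 209 CPM against 273, 255 and 246 CPM (-0.18 ± 0.07, edgeR adjusted p = 0.0451), a call kept in 3 of 14 alternatives, lost without mouse 2 or mouse 3 (-0.15 and -0.18), and turned to 0.42 at matched depth. That makes 4 of 7 members, where edgeR called 57.7% of 9842 genes, so the count is no larger than the background share, and the differences of Il2ra, Il7r and Il9r stand beside a median of -0.04 over all genes.

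Il13+ cells of the reporter sort were also larger and more often cycling. Their median was 12206, 13185 and 14659 UMIs against 6429, 6219 and 5850, and 65.9, 70.0 and 68.9% had a cycling UMI against 29.6, 29.9 and 34.0%. At matched depth Il2ra stood at 1.69, and without cycling cells at 3.13. The summed mast cell and basophil transcripts were 6.29, 0.851 and 0.292 CPM in Il13+ cells and 0 in Il13- cells, with 2 of the 4 markers (Fcer1a and Ms4a2) at 0 in all T-gated cells. Il2ra in Il13+ cells was 129 and 122 CPM in mice 2 and 3, where these were under 1 CPM, and 123 CPM in mouse 1. At equal depth per cell 26.1, 22.6 and 27.0% of Il13+ cells had an Il2ra UMI against 3.06, 4.77 and 4.60% of Il13- cells, where B-marked cells had 3.03, 8.70 and 3.85% (unthinned 51.6 to 58.3% against 7.78 to 9.55%).

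**Figure D3:**
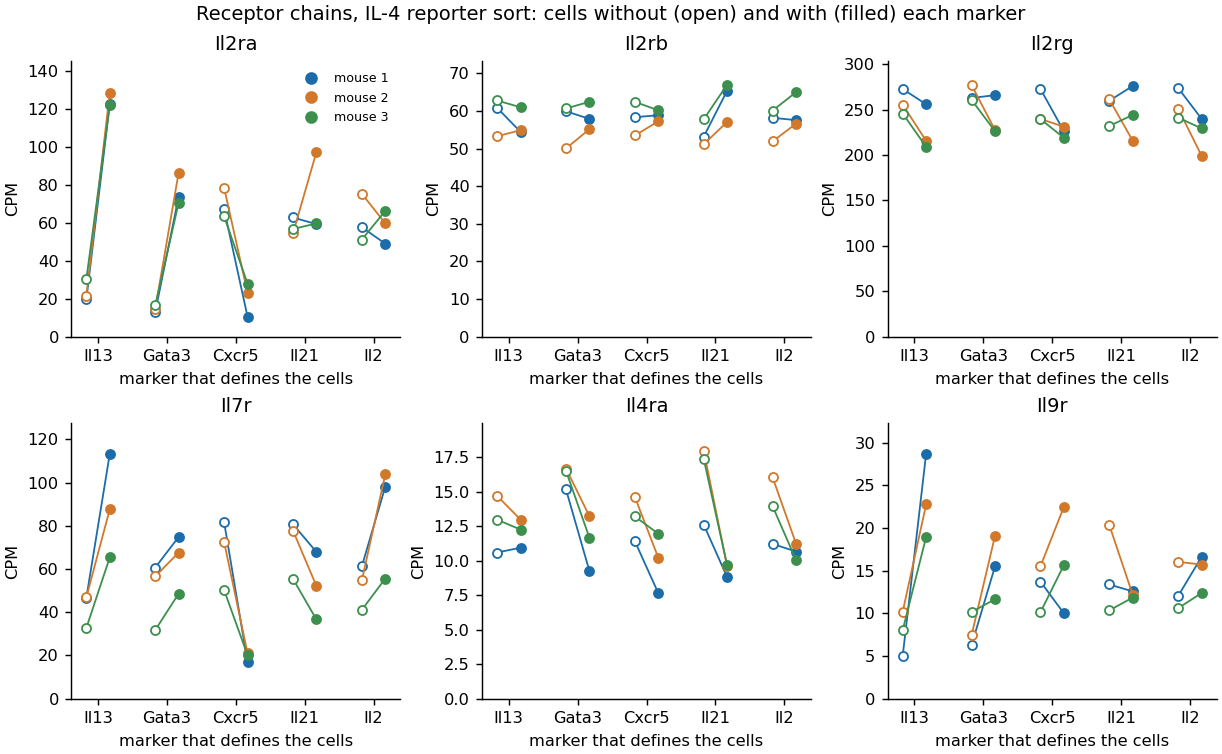
Levels of the 6 receptor chains (CPM) in cells with (filled) and without (open) each marker in the IL-4 reporter sort, 1 line per mouse. Il2ra in Il13+ cells lies at 122 to 129 CPM against 19.7 to 30.3 CPM, and Cxcr5+ cells lie below Cxcr5- cells for Il2ra and Il7r in all 3 mice.

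Unlike Il2ra, Il7r and Il9r, the level of Il2 itself had no settled direction in the reporter sort by Il13. Neither had Il2rb, Il2rg and Il4ra, whose signs turned in 4, 2 and 3 of 14 alternatives. Il2 stood at 238, 186 and 288 CPM in Il13+ cells against 229, 315 and 261 CPM in Il13- cells, higher in 2 of 3 mice (-0.18 ± 0.13, edgeR adjusted p = 0.258). Among cells with no cycling UMI it stood at 299, 703 and 904 CPM against 234, 312 and 289 CPM (1.15 ± 0.16, edgeR adjusted p = 1.1e-04). Among cells with a cycling UMI it stood at 224, 110.4 and 218 CPM against 222, 319 and 231 CPM. With a 5% mitochondrial limit the difference was -0.69 (edgeR adjusted p = 0.0029), without mouse 1 it was -0.28 (edgeR adjusted p = 0.0024), without mouse 3 it was -0.37 (edgeR adjusted p = 2.5e-04), and without mouse 2 it was 0.11 (edgeR adjusted p = 0.477). At equal depth an Il2 UMI was in 26.5, 23.1 and 26.2% of Il13+ cells against 15.8, 15.3 and 12.6%. This share was higher in each mouse, with no overlap. The CPM was higher in 2 of 3 mice and its difference did not pass, so no order of level is read.

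Gata3+ cells of the reporter sort, which take in 211 of 223, 211 of 227 and 135 of 151 Il13+ cells, had Il2ra at 73.8, 86.6 and 70.6 CPM against 12.9, 14.5 and 16.5 CPM (2.37 ± 0.13, edgeR adjusted p = 7.0e-11). Il9r (15.5, 19.1 and 11.7 CPM against 6.29, 7.46 and 10.2, a log2 difference of 0.89) and Il7r (74.9, 67.6 and 48.6 CPM against 60.7, 56.6 and 31.8, 0.38) rose, and Il4ra fell (9.26, 13.2 and 11.7 CPM against 15.2, 16.7 and 16.5, -0.51). These are 4 of 7 members where edgeR called 42.5% of 10030 genes. Il2ra kept its call in all 14 alternatives (1.78 at matched depth, 1.56 without cycling cells), and without cycling cells it was the 1 member that passed. Il7r lost its call without mouse 3 (0.27), and Il4ra without mouse 1 (-0.40) or mouse 3 (-0.53). Il9r lost its call with the 5% mitochondrial limit, at matched depth and without cycling cells. Il2 stood at -0.06 and changed sign with the mouse left out (0.36 without mouse 2).

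Cxcr5+ cells of the reporter sort (187, 160 and 274 cells) had less Il2ra and Il7r. Il2ra stood at 10.6, 23.2 and 28.0 CPM against 67.2, 78.5 and 63.5 CPM (-1.75 ± 0.16, edgeR adjusted p = 3.5e-08), and Il7r at 17.1, 21.1 and 20.2 CPM against 81.7, 72.5 and 50.3 CPM (-1.80 ± 0.15, edgeR adjusted p = 3.6e-09). Il2rb, Il2rg, Il4ra and Il9r did not pass (-0.03, -0.20, -0.41 and 0.26). The groups did not overlap for the 2 called of 7 members, where edgeR called 17.7% of 10067 genes, and both calls were kept under all 14 alternatives. Il2 stood at 231, 109.7 and 293 CPM against 241, 271 and 261 CPM (-0.36, edgeR adjusted p = 0.098) and turned on mouse 2, being 0.01 without it (edgeR adjusted p = 0.96) and called without mouse 1 (-0.49) or mouse 3 (-0.65), with edgeR adjusted p of 3.2e-06 and 1.1e-07. Cycling cells were 34.2 to 37.5% of Cxcr5+ and 36.7 to 40.1% of Cxcr5- cells.

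Il21+ cells of the reporter sort again had more Il2, at 292, 259 and 409 CPM against 206, 244 and 179 CPM, with no overlap (0.59 ± 0.14, edgeR adjusted p = 0.0226). They had less Il7r (67.9, 52.2 and 36.7 CPM against 80.7, 77.8 and 55.5, -0.47 ± 0.09) and less Il4ra (8.80, 9.60 and 9.66 CPM against 12.6, 18.0 and 17.4, -0.78 ± 0.16), both lower in 3 of 3 mice at edgeR adjusted p of 0.0057 and 0.0120. These 3 of 7 members passed where edgeR called 5.19% of 9872 genes. Leaving out mouse 3 ended all 3 calls (0.28, -0.42 and -0.74), leaving out mouse 1 that of Il2 (0.64) and leaving out mouse 2 that of Il4ra (-0.70), and by DESeq2, or without the mouse as a block, 0 of 7 passed. Il2ra stood at 0.28 ± 0.13 and did not pass, whereas it was lower in the Il21+ cells of the Tfh sort, and the difference between the sorts was not tested.

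Counted once each, reporter-sorted cells of the Il13 class held most Il2ra UMIs, while Il2 UMIs were spread over classes. Cells positive for both Il13 and Il21 (88, 87 and 54) count in the Il13 class by the order, unless Foxp3+. The Il13 class held 74.5, 80.9 and 62.6% of Il2ra UMIs, 55.8, 59.2 and 42.7% of Il7r UMIs and 77.2, 62.4 and 48.5% of Il9r UMIs from 19.0, 22.4 and 11.8% of the cells. It held 34.5, 33.7 and 31.0% of Il2 UMIs, close to the 31.0, 32.4 and 36.6% of the Il21 class, which made up 24.6, 22.4 and 25.3% of the cells. As a level, Il2 was 315, 427 and 379 CPM in the Il21 class against 235, 186 and 288 CPM in the Il13 class, and the mice did not overlap. Il2 in Il13+ cells differed with cycling, as given above, and these class levels were not split by cycling. Il2ra was 122 to 127 CPM in the Il13 class, 21.9 to 46.8 CPM in the Il21 and Gata3 classes, which overlap, and 6.23 to 17.4 CPM in the unmarked and Cxcr5 classes.

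Foxp3+ cells were too few in the reporter sort to be tested (10, 6 and 6 cells). Over these 22 cells Il2ra had 64 UMIs, or 288 CPM (222 to 368, exact Poisson 95% interval), against 59.8 CPM (57.2 to 62.5) in Foxp3- cells. By mouse it was 424, 212 and 220 CPM, above every mouse of every other class, with 3 of 10, 3 of 6 and 0 of 6 of these cells also Il13+. Il2 had 26 UMIs, or 117 CPM (76.4 to 171), against 253 CPM, all of them in 4 cells. Il7r had 36 UMIs, or 162 CPM (113 to 224), against 58.7 CPM. These intervals cover counting error only.

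The shared signalling chains, Il2rb and Il2rg, passed in few comparisons, and such a count is not set below the background share. In the tested comparisons edgeR called 1.58 to 57.7% of all genes. Across the 11 tested comparisons Il2rb passed once (Tfh sort, Foxp3) and Il2rg once (reporter sort, Il13), and the other differences of Il2rb lay between -0.17 and 0.30 and those of Il2rg between -0.32 and 0.02. In the Tfh sort Il2rb stood at 75.3 to 135 CPM in the 4 exclusive classes without Foxp3 or Il13, and in the reporter sort it stood at 43.7 to 67.5 CPM in the 5 classes without Foxp3.

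**Figure D4:**
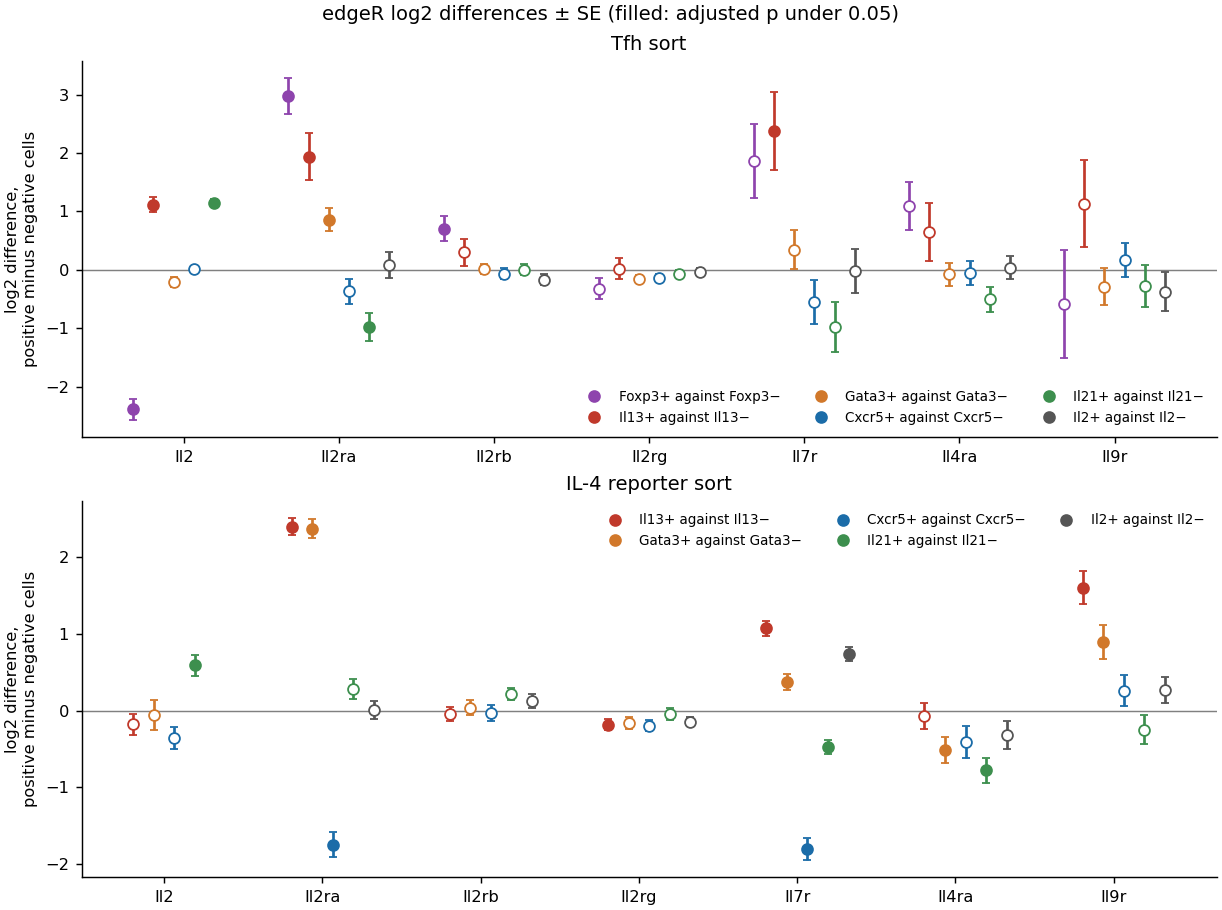
Log2 differences of the members between cells with and without each marker (edgeR, 3 mice per sort), filled where the adjusted p is under 0.05. Bars are the SE of the edgeR fit, not the spread between mice. Il2 lies at -2.39 for Foxp3+ cells of the Tfh sort, and Il2ra at 2.39 and 2.37 for Il13+ and Gata3+ cells of the reporter sort.

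Producers and receivers were last compared within single cells. Il2+ cells of the Tfh sort (352, 373 and 232) had Il2ra at 24.8, 17.3 and 11.1 CPM against 25.8, 18.3 and 6.03 CPM in Il2- cells (0.08 ± 0.22, edgeR adjusted p = 0.898), and 0 of the 6 receptor chains passed where edgeR called 12.1% of 7952 genes (0 at an unadjusted p under 0.05, and 0 by DESeq2). Il2rb stood at -0.17 ± 0.09 and was lower in 3 of 3 mice. Il2+ cells of the reporter sort had Il7r at 98.1, 104 and 55.6 CPM against 61.3, 54.7 and 41.1 CPM (0.74 ± 0.09, edgeR adjusted p = 5.9e-05), 1 of 6 members where edgeR called 20.3% of 9887 genes. The mouse 3 value lay between the Il2- values of the other mice, but each mouse rose against its own Il2- cells. Without the mouse as a block the adjusted p of Il7r was 0.0546. Il2ra stood at 0.00 ± 0.12 there and at -0.60 at matched depth (edgeR adjusted p = 0.0028).

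Il2 and receptor UMIs were also set against each other cell by cell, at equal depth. In the Tfh sort 12 of 32, 10 of 22 and 1 of 8 cells with an Il2ra UMI also had an Il2 UMI (37.5, 45.5 and 12.5%), against 35.5, 35.3 and 37.2% of cells without Il2ra (unthinned 59.5, 57.1 and 70.0% against 46.0, 44.7 and 47.8%). The direction differed between mice and turned with the depth used. In the reporter sort 23.2, 19.5 and 20% of Il2ra-bearing cells had an Il2 UMI against 17.3, 16.7 and 14.6%, and 24.8, 28.7 and 22.5% of Il7r-bearing cells against 16.8, 15.2 and 14.2%. Each mouse was higher for both chains, and the groups did not overlap for Il2ra or for Il7r. For Il2ra the mean shares were 13.4 against 12.5% at the lower UMI number. At matched depth the Il2ra level was lower in Il2+ cells of this sort (-0.60), so no direction is read for Il2ra. UMIs of Il2ra, Il2rb and Il2rg together were seen in 3 of 1125, 4 of 1209 and 0 of 677 cells of the Tfh sort, the last allowing up to 0.443% of cells with such UMIs at this drawn depth, not of cells that carry the chains, and in 0.783, 1.12 and 0.731% of reporter-sorted cells (unthinned 1.60 to 2.79% and 7.77 to 10.6%). Il2rb with Il2rg, the intermediate-affinity pair, but no Il2ra UMI was seen in 5.24, 4.47 and 5.91% and in 7.53, 7.08 and 6.95% of cells. At the drawn depth a missing Il2ra UMI does not show that a cell lacked the chain.

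**Figure D5:**
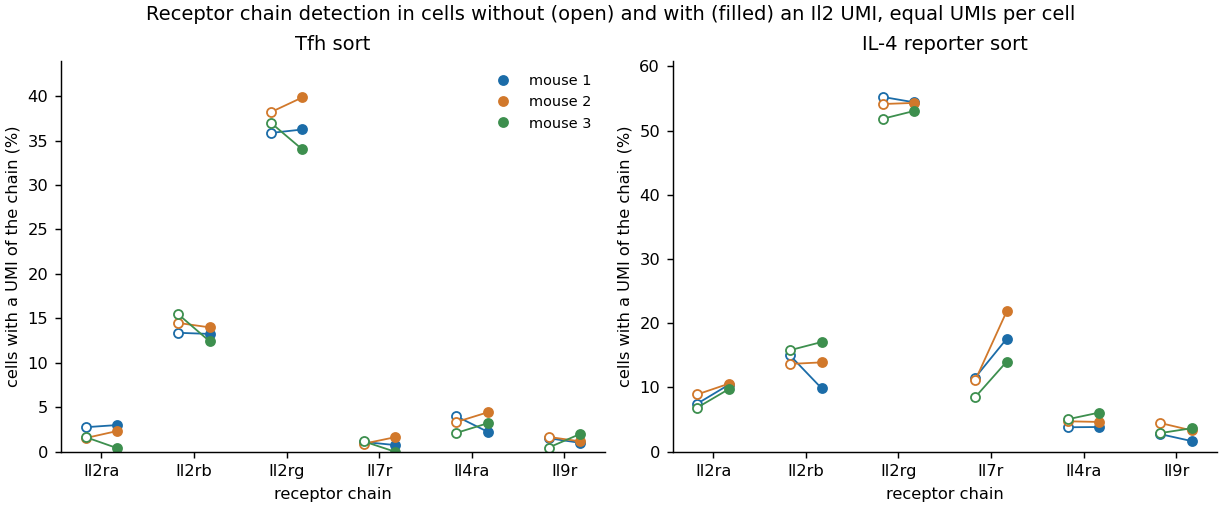
Percent of cells with a UMI of each receptor chain among cells without (open) and with (filled) an Il2 UMI at equal UMIs per cell, 1 line per mouse. Il7r in the reporter sort rises in all 3 mice (14.0 to 21.9% with Il2 against 8.49 to 11.5% without), and in the Tfh sort Il2rb alone moves one way in all 3 mice, being lower in each.

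Genes that IL-2 and STAT5 are known to induce were read from a list of 16. Cish, a STAT5-induced inhibitor of cytokine signalling, passed in 8 of the 11 comparisons: it was 72.0 ± 45.2 against 33.3 ± 2.40 CPM (SD, n = 3) in Foxp3+ cells of the Tfh sort (log2 1.28, in 2 of 3 mice), 125 ± 37.3 against 32.3 ± 4.20 CPM in its Il13+ cells (1.79) and 161 ± 23.9 against 60.2 ± 5.86 CPM in Il13+ cells of the reporter sort (1.42). It rose by 0.82 and 1.19 in Gata3+ cells of the Tfh and reporter sorts and by 0.51 and 0.52 in Il2+ cells, and fell by 1.26 in Cxcr5+ cells of the reporter sort. By Il21 it did not pass in either sort (0.19 and -0.18). Socs2, a related inhibitor, rose by 2.68 in Foxp3+ cells of the Tfh sort and by 1.73 in Il13+ cells of the reporter sort and fell by 2.17 in its Cxcr5+ cells. Gzmb, the cytotoxic protease granzyme B, rose by 2.94 and 5.53 in Il13+ and Gata3+ cells of the reporter sort, while Bcl2, the survival gene, fell by 1.39 and 0.86.

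The list of 16 did not move one way. In Foxp3+ cells of the Tfh sort 4 of 13 tested genes rose and 0 fell, with a median of -0.12, and in Il13+ cells 1 rose (Cish) and 1 fell (Pim1, a kinase gene, -0.45). By Foxp3 and Il13 edgeR called 4.61% and 3.22% of all genes in this sort, and by Cxcr5 1.58%. In its Gata3+ cells 1 of 14 rose (Cish) and 5 fell (median -0.19), where edgeR called 13.3% of all genes. In its Il21+ cells 3 of 14 rose and 0 fell, where edgeR called 3.00%. In Cxcr5+ cells of that sort 0 of 14 passed by edgeR or DESeq2, and 3 had an unadjusted p under 0.05. Among reporter-sorted cells 7 of 16 rose and 7 fell by Il13 (median -0.13), the same counts by Gata3 (0.16), and 3 rose and 9 fell by Cxcr5 (-0.42, against 0.01 over all genes), where edgeR called 57.7%, 42.5% and 17.7% of all genes. By Il2 itself 6 of 13 rose and 1 fell in the Tfh sort (median 0.20, against -0.01 over all genes), where edgeR called 12.1% of all genes. Tnfrsf4 (0.50), the growth regulator Myc (0.55), the survival gene Bcl2l1 (1.09) and the cyclin gene Ccnd2 (0.34) were among the rises. By Il2 in the reporter sort 7 of 16 rose and 1 fell, where edgeR called 20.3% of all genes. Tnfrsf4 (0.37), Cish (0.52) and Myc (0.61) were higher there and Socs3 was lower (-0.80).

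The transducing molecules, 9 genes from Jak1 to Pik3cd, seldom passed in the Tfh sort and were mostly lower in the type 2 cells of the reporter sort. In the Tfh sort 0 of 9 passed by edgeR or DESeq2 by Foxp3, Il13, Gata3, Cxcr5 or Il21 (0 to 2 at an unadjusted p under 0.05), and by Il2 Stat5a rose (0.48) and Jak1 fell (-0.26). In these comparisons edgeR called 1.58 to 13.3% of all genes, so few passes among 9 genes are near the background share. By Il13 in the reporter sort 1 rose and 5 fell (median -0.47, against -0.04 over all genes), among them Stat5b, the transcription factor of the pathway (25.1 ± 1.54 against 42.6 ± 4.49 CPM, -0.76), the kinase gene Jak1 (227 ± 17.8 against 315 ± 6.91 CPM, -0.47), Stat3 (-0.69) and Pik3cd (-0.58). By Gata3 1 rose and 6 fell (median -0.37). These counts stand beside 57.7% and 42.5% of all genes called by Il13 and Gata3. Gata3+ cells of this sort were deeper (median 7670.5 to 7874 UMIs against 5159 to 5749) and more often cycling (42.6 to 49.4% against 24.7 to 26.6%), as Il13+ cells were.

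Of the other gamma chain cytokines and receptors, Il4 moved most often in the Tfh sort. Il4 rose by 2.13 in Il13+ cells (3448 ± 1007 against 763 ± 70.8 CPM), by 0.35 in Il21+ cells and by 0.29 in Il2+ cells and fell by 1.79 in Foxp3+ cells. Il21 rose by 0.53 in Il2+ cells and fell by 2.01 in Foxp3+ cells, where its receptor gene Il21r rose by 0.81, and Il21r fell by 0.42 in Il21+ cells. Among reporter-sorted cells Il21 rose by 0.27 in Il2+ cells and fell by 0.41 in Il13+ cells. Of the list of 9, only 3 to 5 genes passed the low-count filter in any comparison. In the reporter sort 1 of 5 rose and 2 fell by Il13, and 1 of 5 fell by Gata3 and by Cxcr5. There edgeR called 57.7, 42.5 and 17.7% of all genes. By Gata3 in the Tfh sort 1 of 4 fell. In that sort edgeR called 1.58 to 13.3% of all genes, and counts from so few genes are not set above that share.

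Regulatory T cell genes were mostly higher in Foxp3+ cells of the Tfh sort, and a few were lower in Il2+ cells. In Foxp3+ cells of the Tfh sort 6 of 7 tested genes rose and 0 fell, among them Capg (2.26), Tnfrsf9 (2.16), Ikzf2 (1.40) and Ctla4 (1.10), with a median of 1.12, where edgeR called 4.61% of all genes. Il2+ cells of that sort had less Ctla4 (336 ± 44.3 against 486 ± 24.0 CPM, -0.50), Ikzf2 (-0.50) and Foxp3 (2.93 ± 1.67 against 10.2 ± 3.40 CPM, -1.75), with 3 of 8 lower by edgeR and the rest not passing. Il2+ cells of the reporter sort had less Il10 (121 ± 40.5 against 300 ± 97.3 CPM, -1.26), Ikzf2 (-0.97) and Ctla4 (-0.52) and more Tnfrsf9 (0.74), with 1 of 9 higher and 3 lower. By Il2 edgeR called 12.1% of all genes in the Tfh sort and 20.3% in the reporter sort. Rises were not limited to Foxp3+ cells. In Il21+ cells of the reporter sort 5 of 9 rose and 1 fell (median 0.32), where edgeR called 5.19% of all genes. By DESeq2 2 rose and 0 fell there. By Il13, Gata3 and Cxcr5 in that sort 3, 4 and 1 rose and 3, 2 and 4 fell, where edgeR called 57.7, 42.5 and 17.7%. In the Tfh sort 2 of 7 rose and 1 fell by Il13, and 2 of 8 rose and 0 fell by Gata3 (3.22 and 13.3% of all genes). The list shares Tnfrsf18 with the response list.

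Finally, the genes whose levels ran most like Il2 and Il2ra over the sums of mouse and exclusive class were listed, by Pearson r of log2(CPM + 10), as a description with no test. Over 18 sums of the Tfh sort and 4920 genes, Il2 ran with Copb1 (r = 0.90), the TNF family ligand genes Tnfsf11 (0.90) and Tnfsf8 (0.89), Plk3 (0.88) and Il4 (0.86), and Il2ra with Capg (0.91), Serinc3, Pcbp1 and Tnfrsf18 (0.90 each) and Psma4 (0.89). Over 16 sums of the reporter sort and 5224 genes, Il2ra ran with Cwc15 (0.98), Ppib (0.97), Ddost, Gna15 and Cyba (0.96 each). For Il2 the highest r there were lower, with Malsu1 (0.72), Cul4b (0.71), Cflar (0.68), Spag9 (0.66) and Nipa2 (0.65). The sums share mice, depth and library, and those of 1 mouse are not independent.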

How the data were processed

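Single cells were captured by droplet sequencing with hashtag antibodies, in 2 sorts of 3 mice each. The authors deposited unnormalized UMI counts for each gene in each barcode, and hashtag counts in the same form; reads were processed with Cell Ranger 2.2.0 against mm10, per the submitters' processing notes, and the header of the reporter matrix names Cell Ranger 3.0.2. Barcodes were kept with a minimum of 500 genes and no more than 10% of UMIs from mitochondrial genes, and a cell was given to a mouse when its top hashtag had 10 or more counts and at least 3 times the second. This removed doublets across mice, and no doublet caller was run, so doublets within a mouse remain. Of 3956 and 7646 barcodes, 3916 and 4585 passed both limits and 3780 and 3989 were assigned. Symbols listed more than once (67 features) were summed.

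UMI counts were summed per mouse and class, with at least 10 cells per sum, which rest on 2668989 to 4570183 UMIs per mouse in the Tfh sort and 10291588 to 11891520 in the reporter sort. Sums were tested with edgeR 4.0.16 (R 4.3.3, quasi-likelihood, TMM factors, filterByExpr at its minimum count of 10), and p-values were adjusted over all genes by Benjamini-Hochberg. The mouse entered as a block, since both classes come from the same mice. A mouse is its own animal by its hashtag; strain and library are shared within a sort. Foxp3 in the reporter sort could not be fitted (10, 6 and 6 positive cells). The median log2 difference of all genes lay between -0.05 and 0.01 in the 11 comparisons. For shares of cells with a UMI, each cell was drawn down to 1500 (Tfh) or 3000 (reporter) UMIs, leaving out 24, 27 and 10 shallower cells of mice 1, 2 and 3 of the Tfh sort and 137, 108 and 185 of the reporter sort. Alternatives were another mitochondrial limit (5%), hashtag ratio (10) and UMI minimum, all assigned cells, matched depth, no cycling cells, no Foxp3+ cells, each mouse left out, RLE factors, DESeq2 1.42.0, no low-count filter and no block. The fit was tested on simulated data.

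The members and the gene lists were chosen with earlier results of these data known. The genes named are the members, up to 4 called genes with the smallest p of each list in a comparison, and the 5 genes most like Il2 and Il2ra by r among genes with a mean of 20 CPM or more. Proteins were not used here.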

Additional observations from a re-analysis of the deposited data

How the results depend on the processing

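Of 23 member differences that passed, 9 passed under every alternative run: Il2 by Foxp3, Il13 and Il21 in the Tfh sort, and in the reporter sort Il2ra by Il13, Gata3 and Cxcr5, Il7r by Il13 and Cxcr5 and Il9r by Il13. Of 52 that did not pass, 36 had another sign under at least 1 alternative. Where a call was lost or a sign turned, the cause was not tested.

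In the Tfh sort, by Il13 the members that passed went from 3 to 1 at matched depth, where only Il2, Il2rb and Il2rg could be tested, and to 1 without cycling cells (1 to 3 with a mouse left out). By Gata3 they went from 1 to 2 with the 5% mitochondrial limit, 3 with all assigned cells, 2 with the other UMI minimum, 0 without cycling cells, 0 by DESeq2, 2 without a low-count filter and 0 with no replicate block (0 to 2 with a mouse left out). By Il21 they went from 2 to 4 with all assigned cells and to 1 with the other UMI minimum, without cycling cells, without Foxp3+ cells, by DESeq2 and with no replicate block (1 to 2). By Il2 they went from 0 to 2 with all assigned cells. By Foxp3, 2 passed with any 1 mouse left out.

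In the reporter sort, by Gata3 they went from 4 to 1 with the 5% limit, 2 at matched depth, 1 without cycling cells and 2 by DESeq2 (3 to 5 with a mouse left out, as by Il13). By Cxcr5 they went from 2 to 4 without cycling cells and 4 without a low-count filter (3 with any 1 mouse left out). By Il21 they went from 3 to 5 with all assigned cells, 1 at matched depth, 1 without cycling cells, 0 by DESeq2 and 0 with no replicate block (0 to 2). By Il2 they went from 1 to 3 with all assigned cells, 2 at matched depth and 0 with no replicate block (1 to 2).

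Reversed log2 differences were Il4ra by Il2 in the Tfh sort with all assigned cells (-0.94), and in the reporter sort Il2 by Il13 without cycling cells (1.15), Il2rg by Il13 at matched depth (0.42) and without cycling cells (0.25), Il4ra by Il13 likewise (0.84 and 0.90), Il2 by Gata3 with 1 mouse left out (-0.53 without mouse 3 to 0.36 without mouse 2) and Il2ra by Il2 at matched depth (-0.60). With 1 UMI enough for every marker, the mean share of Il2 UMIs rose from 48.6 to 65.6% in the Il21 class of the Tfh sort and from 33.1 to 41.2% in the Il13 class of the reporter sort. Il2 among Il2ra-bearing cells was 31.8% in the Tfh sort, 38.2% at the lower UMI number and 62.2% unthinned, and among cells without Il2ra 36.0%, 27.1% and 46.2%, so the direction turned with depth. For reporter-sorted cells these were 20.9%, 13.4% and 32.7%, and 16.2%, 12.5% and 21.2%. With a mouse left out, the Foxp3 and Il13 classes of the Tfh sort held 16.9 to 32.0% and 9.59 to 13.6% of Il2ra UMIs and the Il21 class 47.0 to 49.6% of Il2 UMIs. In the reporter sort the Il13 class held 68.6 to 77.7% of Il2ra and 32.4 to 34.1% of Il2 UMIs, and the Il21 class 31.7 to 34.5% of Il2 UMIs.

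The count of all genes called ranged over the alternatives from 39 to 649 by Foxp3, 93 to 331 by Il13, 43 to 1524 by Gata3, 11 to 481 by Cxcr5, 40 to 835 by Il21 and 219 to 1242 by Il2 in the Tfh sort. For the reporter sort it ranged from 1491 to 6006, 485 to 4845, 216 to 2000, 78 to 1407 and 219 to 2279 by Il13, Gata3, Cxcr5, Il21 and Il2. Il2ra and Il7r in the Tfh sort rest on 222 and 78 UMIs over 3072 cells, and classes of 10 cells set the spread of mouse 3.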
